A study of Mus musculus with 15 samples.

Results

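The nuclear-encoded subunits of the mitochondrial respiratory chain were followed in mouse embryonic fibroblasts with and without CIZ1, before and after adaptation to culture. Members were chosen by name alone. A transcription unit was taken when one of its gene symbols began with Nduf followed by a, b, c, s or v and a number, with Uqcr, with Cox and a number from 4 to 8, or with Atp5, or was one of Sdha to Sdhd, and when it was not named as a pseudogene. This gave 118 of 65522 units, which carried 83 gene symbols. Of these, 37 genes belonged to complex I (50 units), 4 to complex II (8 units), 8 to complex III (12 units), 17 to complex IV (22 units) and 17 to complex V (26 units).

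The respiratory chain carries electrons from NADH through complex I, or from succinate through complex II, to ubiquinone, then through complex III and cytochrome c to complex IV, which reduces oxygen. The proton gradient made by complexes I, III and IV drives ATP synthase, complex V. Complex II is wholly nuclear-encoded, while the other complexes also contain subunits that are transcribed inside mitochondria from their own DNA, so both genomes must be expressed to build them.

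RNA-seq was carried out on poly(A)-selected RNA of 15 female C57BL/6 fibroblast populations in 6 groups. These were 3 primary WT populations (CIZ1 +/+, from embryos E13.1, E13.8, E14.4), 3 culture-adapted WT lines from the same embryos, 2 primary populations with CIZ1 deleted (CIZ1 -/-, E14.2 and E13.15), 2 untreated primary CIZ1 null populations that also carry an inducible GFP-CIZ1 transgene (E13.17 and one numbered S13), 2 CIZ1 null populations with this transgene treated with doxycycline at 5 to 10 µg/ml (S14 and S15), and 3 culture-adapted CIZ1 null lines (E13.15, E13.17 and E14.2). The culture-adapted E13.17 line also carries the transgene. Codes such as E13.17 name single embryos and are not embryonic ages. Primary cells were taken before passage 5. Untreated E13.17 was counted with the primary CIZ1 null populations so that adaptation could be followed in the same embryos in each genotype. The study names E13.17 and E14.19 as the transgenic embryos of the induction, which leaves E14.19 for S13, but which of S14 and S15 came from which of them is not given in the sources used here. A label of the sample taken as E13.17 also reads S13, so the identity of that sample rests on a match of its values to those listed per embryo. Where 3 values are given for a group, their order is E13.1, E13.8, E14.4 for WT cells and E13.15, E13.17, E14.2 for CIZ1 null cells. CIZ1 null cells came from embryos that lack CIZ1 in all tissues, and each culture-adapted line stands for 1 embryo. Because whole cultures were measured, fewer cells of a type and less RNA per cell cannot be told apart.

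Levels are in FPKM, in which the authors scaled fragments to the length of the transcripts and the size of the library. Changes are given as differences of log2(FPKM + 1), which understates changes of units with low FPKM, and were tested with limma over all units with a mean of at least 1 FPKM. A unit was called at a Benjamini-Hochberg adjusted p under 0.05. The number of reads behind each value is unknown, but from the steps of the lowest values the relative depth of the libraries ran from 0.483 in S13 to 1.64 in primary WT E13.1, and 5 of the 6 adapted lines lay below all 6 primary populations matched to an embryo. That one exception, adapted WT E14.4, was at 1.19. Fibroblast markers summed to 12056 to 12312 FPKM in primary WT populations and 2770 to 7869 in adapted WT lines, and to 11428 to 12204 and 3775 to 5273 in CIZ1 null cells. Of their 18 units, 4 had a positive change in each genotype. In WT adaptation 1 was called (5.56%, against 9.55% of all units), Prrx1, upward (log2 change 0.92, adjusted p = 0.0332, limma). In CIZ1 null adaptation 4 were called (22.2%, against 4.86%), all downward, from Col1a1, Col1a2 and Vim. None of these calls was left with the embryo entered as a block. Markers of blood and macrophages summed to 17.4 to 33.4 FPKM in primary WT populations and 2.17 to 9.48 in adapted WT lines. There 3 of their 8 units passed the filter, and these were lower without overlap, as were 21.4% of all units. Units at such levels can pass the filter through the primary cells alone, so this direction is no separate support. Of the 3, 1 was called downward, Lyz2 (log2 change -2.55, adjusted p = 0.04996, limma), where 6.68% of all units were called downward. With the embryo as a block Lyz2 was not called (adjusted p = 0.0845, limma). In CIZ1 null cells they summed to 9.44 to 96.5 FPKM before adaptation, with E13.17 the highest, and to 4.01 to 16.4 after it, and in S13, S14 and S15 to 67.7 to 88.0. Markers of muscle summed to at most 0.205 FPKM in any sample, with 4 of 8 units at 0 throughout, those of neurons to at most 0.391, those of endothelium to at most 6.53 and those of epithelium to at most 18.9. The summed level of 6 proliferation genes was 254 to 371 FPKM in primary WT populations and 639 to 672 in adapted WT lines, but 94.1 to 675 in adapted CIZ1 null lines. The part of these differences in the results below was not tested.

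Promoters of the members are shown first, since members are known targets of a small group of transcription factors, NRF1 and GABPA (also called NRF2) for respiratory chain genes in general and YY1 for many mitochondrial genes. RefSeq (GRCm38.p6) gave the 250 bases before to 50 bases after the gene start for 69 of the 83 genes. The palindrome GCGCATGCGC, bound by NRF1, was found on either strand in 5 of the 69 genes (7.25%), against 1.07% of 27025 genes of the same table. With any base in the middle (GCGCANGCGC, which includes the first form) it was found in 17 (24.6%, against 5.19%). The core CCGGAAG of GABPA and other ETS factors was in 16 (23.2%, against 9.93%), and the YY1 core AAGATGG in 12 (17.4%, against 7.28%). Of the 69 genes, 30 held the NRF1 palindrome, CCGGAAG or AAGATGG. These matches describe letters in a window and are not evidence of binding. The NRF1 palindromes are printed below as the full site of this factor, and the YY1 matches of complex I because this complex held 7 of the 12. Matched letters are in capitals and 11 or fewer bases are shown on each side.
Atp5g2, NRF1 (chr15:102671070-102671099, minus strand): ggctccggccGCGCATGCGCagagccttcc
Atp5k, NRF1 (chr5:108434430-108434459, minus strand): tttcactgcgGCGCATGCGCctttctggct
Cox6a1, NRF1 (chr5:115349101-115349130, minus strand): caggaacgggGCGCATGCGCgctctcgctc
Ndufa11, NRF1 (chr17:56717692-56717721, plus strand): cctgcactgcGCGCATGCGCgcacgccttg
Uqcrc1, NRF1 (chr9:108936668-108936697, plus strand): actccgctctGCGCATGCGCagcgcggctc
Ndufa3, YY1 (chr7:3617384-3617412, plus strand): ccgccaagaacAAGATGGccgggagtaag
Ndufa9, YY1 (chr6:126849098-126849126, minus strand): cattgtgggagAAGATGGcggccgccgtc
Ndufb8, YY1 (chr19:44555393-44555415, minus strand): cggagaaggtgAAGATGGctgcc
Ndufc1, YY1 (chr3:51408916-51408944, minus strand): gcctgcggaacAAGATGGcgccgtccgta
Ndufs4, YY1 (chr13:114388045-114388070, minus strand): ttgcctacaggAAGATGGcggcggtc
Ndufs6, YY1 (chr13:73328433-73328460, minus strand): gggtcaccggcAAGATGGcggcggtgct
Ndufs7, YY1 (chr10:80249462-80249490, plus strand): aggccgaggccAAGATGGcggcgctggcg
These 7 YY1 matches lay 23 to 39 bases after the gene start, all in the direction of the gene. The NRF1 palindrome lay 42 to 162 bases before the start in 4 genes and 31 bases after it in Uqcrc1. The changes of these printed genes on adaptation did not go one way in WT cells. With WT cells given first and CIZ1 null cells second, the log2 changes of Ndufs4, which holds the YY1 core, were 0.19 and 0.034. Among genes with the NRF1 palindrome, Atp5k had log2 changes of 0.054 and -0.28, and Ndufa11 of -0.54 and -0.48. In CIZ1 null cells all 5 of these genes had negative changes, the largest in Cox6a1 and Uqcrc1 (both -0.68). So did the 7 printed YY1 genes apart from Ndufs4. Of all 99 member units tested there, 32 had a positive change.

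The respiratory chain genes were among the well expressed genes of these cells. Where a gene had several units, the unit with the highest mean was taken as its leading unit. The other 35 units, from 33 genes, lie mostly at the same coordinates as the leading one, and since the library kit does not mark strand, reads of units at one locus cannot be told apart with certainty. Of these further units 25 had a mean under 5 FPKM. Many of these genes also have processed pseudogenes, with which reads can be shared. Of 83 leading units, 73 had a mean of at least 20 FPKM over the 15 samples and 10 were under 10 FPKM.

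Complex V held the highest unit of the set, Atp5b (the catalytic beta subunit, chromosome 10, 128083273 to 128090391 in GRCm38), with a mean of 1042 FPKM and 784 to 1488 in single samples. The median gene of complex V was at 203 FPKM, of complex III at 156, of complex IV at 102, of complex I at 91.4 and of complex II at 70.4. In complex I the highest was Ndufa4 at 284 FPKM, a protein first assigned to complex I that is now placed with complex IV, and in complex IV it was Cox6a1 at 620, the form of subunit VIa used outside muscle. Uqcr11, a small accessory subunit, led complex III at 341 FPKM. Sdha, the flavoprotein of succinate dehydrogenase, led complex II at 90.0, with Sdhc, a membrane anchor, lowest at 49.6. Uqcrfs1, the Rieske iron-sulfur protein, was the lowest of complex III at 58.9 FPKM. Cox4i1 was not analysed here.

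The low end of the set consisted of isoforms known from particular tissues and of genes that are not core subunits. Cox7b2, Cox8b and Cox8c, forms known from testis or from muscle and brown fat, were listed at 0 in all 15 samples. Cox4i2, a form of subunit IV known from lung, did not exceed 0.648 FPKM. Ndufa4l2, a relative of Ndufa4 known for its response to hypoxia, had a mean of 5.26 FPKM, Atp5s, a factor associated with the synthase, 3.02, and Atp5sl, a complex I assembly factor in spite of its name, was also under 10. For the 73 genes at 20 FPKM or more, the sample with the highest value was 1.42 to 3.23 times the lowest (median 1.92), and 46 of the 73 stayed under 2 times across all 15 samples.

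**Figure D1:**
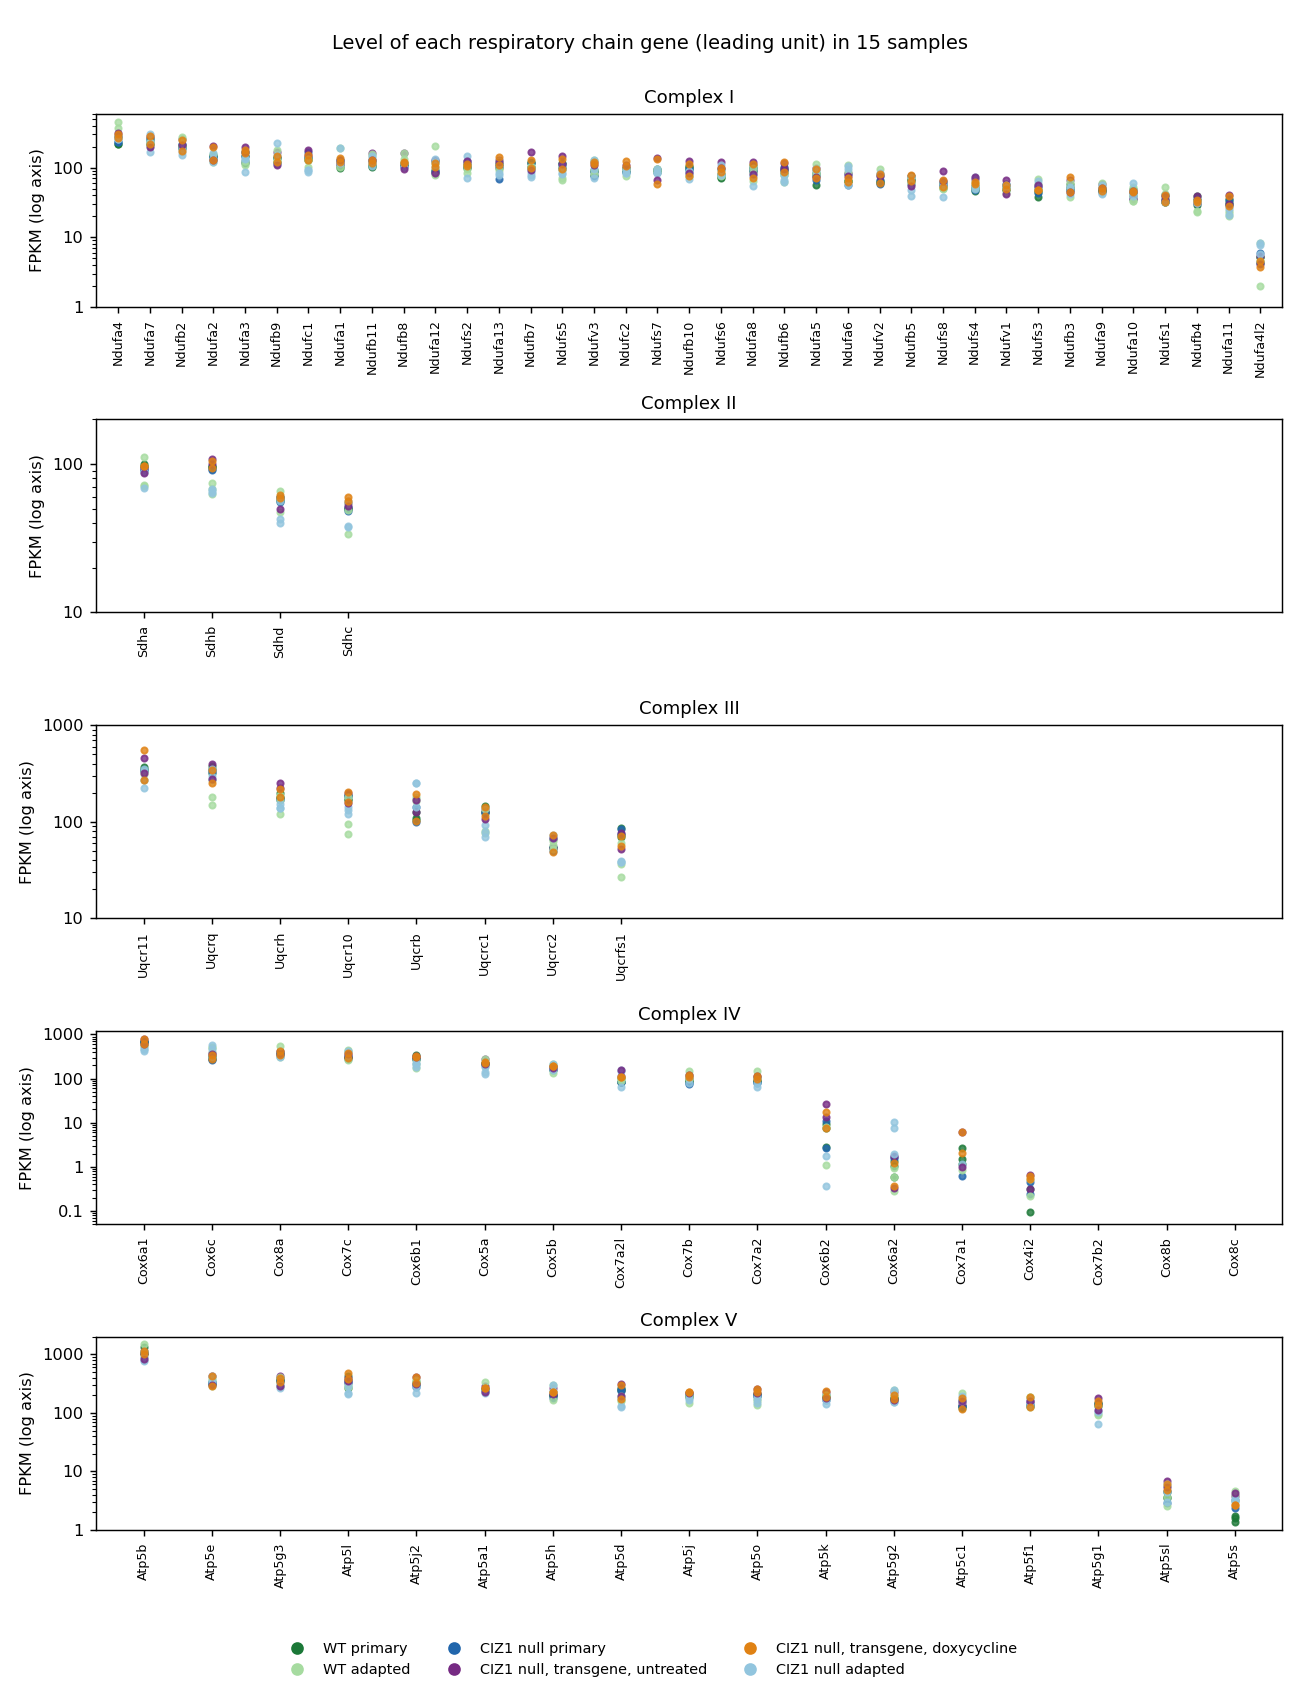
FPKM (log axis) of the leading unit of each respiratory chain gene, by complex and ordered by mean, with 1 point for each of 15 samples coloured by group (values of 0 are left out). Most genes lie within a narrow band, and the isoforms of complex IV known from particular tissues lie at 27 FPKM or lower.

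After adaptation to culture the transcripts of the mitochondrial genome were higher relative to those of the nuclear-encoded units, while the sum of the nuclear-encoded units differed by genotype and by scale. In WT cells the 118 member units summed to 12418, 11896 and 13051 FPKM before and to 11970, 11318 and 13990 FPKM after adaptation. These ranges overlapped. For CIZ1 null cells the sum was 12246, 14764 and 12131 FPKM before and 10999, 11235 and 11838 FPKM after, so that every adapted CIZ1 null line lay below every primary one. As a share of the FPKM of all units, whose total was lower in all adapted lines than in all primary populations matched to an embryo, the members made up 1.87% to 1.97% in primary and 2.05% to 2.501% in adapted WT cells, without overlap, and 1.73% to 2.198% and 1.93% to 2.08% in CIZ1 null cells, with overlap. In contrast, the 4 units on mitochondrial DNA, which also contain ribosomal and transfer RNA genes, summed to 8531, 8206 and 8681 FPKM in primary WT cells and to 12708, 15876 and 18432 FPKM in the adapted WT lines. The sums of CIZ1 null cells were 7948, 6011 and 9640 FPKM before and 14931, 9911 and 19959 FPKM after adaptation. The ratio of mitochondrial to nuclear-encoded sum within a library, which does not depend on how libraries are scaled to each other, was 0.665 to 0.690 in primary WT and 1.06 to 1.40 in adapted WT cells, and 0.407 to 0.795 and 0.882 to 1.69 in CIZ1 null cells. These groups of samples matched to an embryo did not overlap in either genotype. With 3 against 3, an exact permutation test cannot give a two-sided p under 0.1. Untreated primary S13, which is outside these groups, had a ratio of 1.16 and a mitochondrial sum of 14192 FPKM, both above adapted E13.17. With all 4 untreated primary CIZ1 null samples, the median log2 change of the mitochondrial units in CIZ1 null cells was 0.66, against 0.89 without S13.

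Of the 4 mitochondrial units, 2 were called in WT adaptation, where 9.55% of all 19919 units tested were called (2.87% upward). The unit that starts with mt-Atp6 and holds most of the subunit genes was at 3571 ± 202 FPKM in primary and 6515 ± 715 FPKM in adapted WT cells (SD, n = 3) and rose by 0.86 log2 units (SE 0.13, adjusted p = 0.0199, limma). The unit of mt-Nd6 rose from 765 ± 43.4 to 1375 ± 136 FPKM, a log2 change of 0.84 (SE 0.14, adjusted p = 0.0219, limma). For the unit of mt-Nd1 and the ribosomal RNAs the log2 change was 0.96 (adjusted p = 0.0749, limma), and for that of mt-Cytb 0.66 (adjusted p = 0.154, limma). In CIZ1 null adaptation the 4 log2 changes lay between 0.69 and 0.97, with none called (lowest adjusted p = 0.0962, limma), where 4.86% of 20044 units were called. An unadjusted p under 0.05 was reached by 3 of the 4, and by 29.3% of all units. The difference of the change between genotypes lay between -0.051 and 0.10 log2 units for these 4 units (lowest unadjusted p = 0.761, limma interaction). Leaving out any single primary WT population removed both calls in WT cells, while upward calls over all units went from 572 to between 4 and 7. With the embryo as a block the call of mt-Atp6 was left (adjusted p = 0.0484, limma) and that of mt-Nd6 was not (adjusted p = 0.0631, limma).

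**Figure D2:**
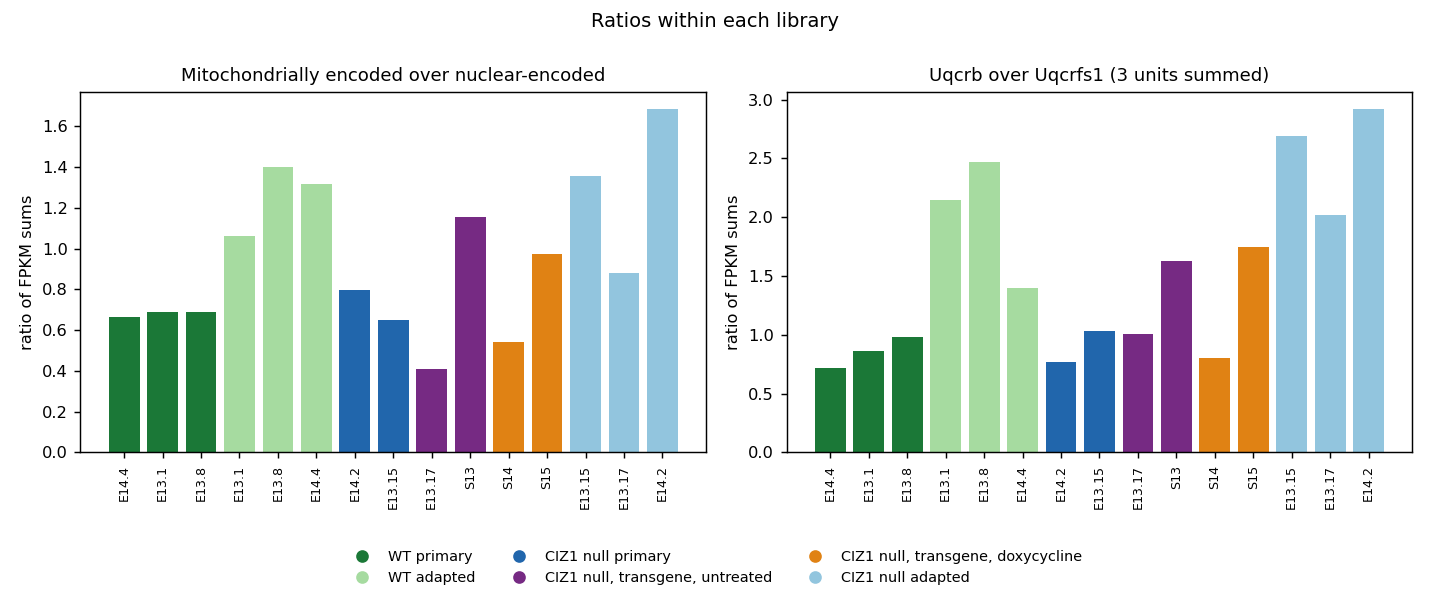
Left, FPKM sum of the 4 mitochondrial units over that of the 118 nuclear-encoded units in each of 15 libraries. Right, Uqcrb over the 3 summed units of Uqcrfs1. Both ratios are higher in all 6 adapted lines than in all 6 primary populations matched to an embryo, which for Uqcrb and Uqcrfs1 follows from choosing a gene seen higher and one seen lower. S13 and S15 lie above those 6 primary populations while S14 lies among them.

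Within the nuclear-encoded set, few units passed the test on adaptation of WT cells. Of 98 member units tested 4 were called (4.08%, against 9.55% of all units), 1 upward and 3 downward, where 6.68% of all units were called downward. An unadjusted p under 0.05 was reached by 24 (24.5%, against 30.6% of all units), and the 3 primary and 3 adapted values did not overlap in 34 (34.7%, against 38.7%), 15 upward and 19 downward, where 17.3% and 21.4% of all units did so. The median log2 change of members was -0.057, against -0.049 for all units tested and -0.26 for the 4756 units with a mean of at least 20 FPKM, the level of most members. After quantile normalization the median of members was 0.19 and 10 of 98 were called, 7 upward and 3 downward. Over all 19919 units the median was then 0.058, with 982 called upward and 1081 downward. The direction of the set, like that of all units, thus depended on scaling.

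The same held for CIZ1 null cells. There 3 of 99 member units were called (3.03%, against 4.86% of all units), all 3 downward, where 3.47% of all units were called downward. An unadjusted p under 0.05 was reached by 25 (25.3%, against 29.3%). The values did not overlap in 34 (34.3%, against 37.1%), of which 30 were downward and 4 upward, against 19.6% and 17.5% of all units. The median log2 change of members was -0.20, against -0.038 for all units and -0.24 for units of at least 20 FPKM. After quantile normalization it was 0.028, against 0.058 for all units. Primary E13.17 had a part in the downward shift. Without this sample the median of members was -0.087 and 42 of 99 had a positive change, against 32 with it. The changes of WT and CIZ1 null cells were compared in a test of the interaction, in which none of 99 members was called by limma, nor any of all 20046 units, and 5 members had an unadjusted p under 0.05 (5.05%, against 4.63% of all units).

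**Figure D3:**
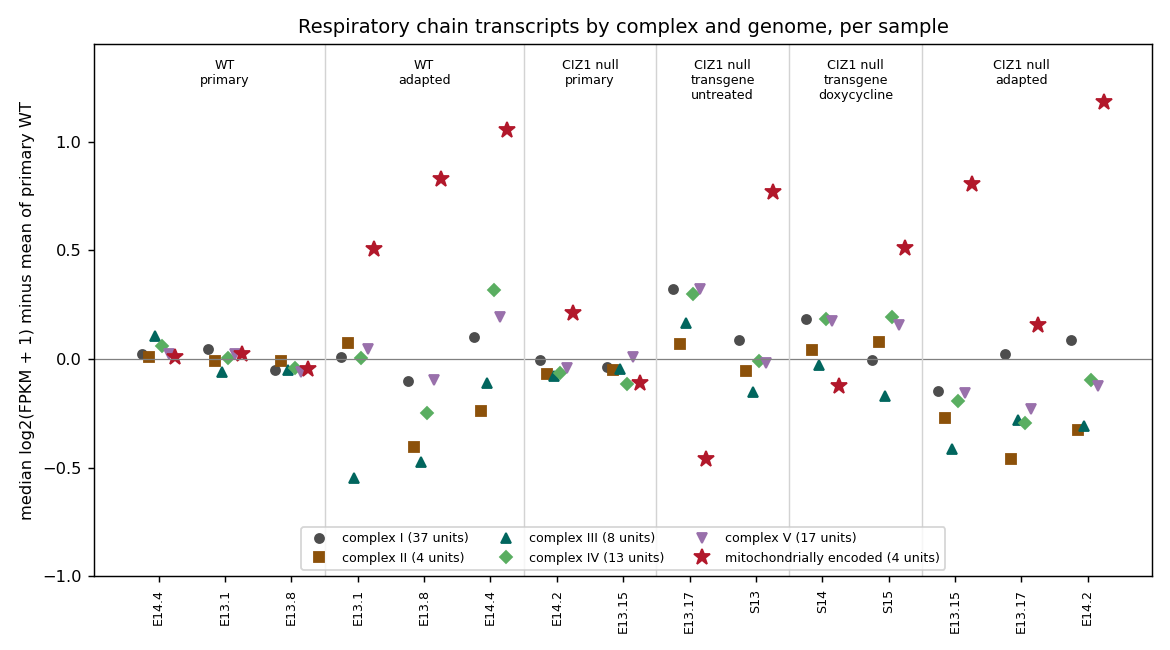
Median difference of log2(FPKM + 1) from the mean of primary WT cells, over the leading units of each complex and over the 4 mitochondrial units (stars), for each of 15 samples. The mitochondrial units lie above 0.15 in all 6 adapted lines, complex III lies between -0.55 and -0.11 in the same lines, a range that also holds S13 (-0.15) and S15 (-0.17), and primary E13.17 has high nuclear-encoded and low mitochondrial units.

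Complex III, which passes electrons from ubiquinol to cytochrome c, had the lowest median change of the 5 complexes in both genotypes, -0.36 over its 8 genes in WT and -0.43 in CIZ1 null cells. Its genes did not move together. Uqcrfs1 (chromosome 13, 30539486 to 30545362) was at 73.0, 69.7 and 86.9 FPKM in primary WT cells and at 36.5, 26.9 and 60.0 FPKM in the adapted WT lines. The CIZ1 null values were 83.7, 75.9 and 75.2 FPKM before and 39.2, 38.5 and 38.7 FPKM after adaptation. Every adapted line was below every primary population matched to an embryo, in both genotypes. Of the other CIZ1 null samples, untreated S13 was at 52.8 FPKM and treated S14 and S15 at 70.7 and 56.1. S13 and S15 thus lay below adapted WT E14.4. In CIZ1 null cells the leading unit of Uqcrfs1 fell by 0.99 log2 units (SE 0.15, adjusted p = 0.0288, limma), the only leading unit of the set to be called there. In WT cells the log2 change was -0.95 with a larger error (SE 0.30, adjusted p = 0.0917, limma). The gene has 2 further units at the same coordinates that changed less, and over the sum of the 3 units the CIZ1 null change was -0.66 (adjusted p = 0.0742, limma). The call was also lost with the embryo as a block (adjusted p = 0.0980, limma), without adapted E14.2 (0.0726) and without any single primary population (0.113 for E14.2, 0.159 for E13.15, 0.102 for E13.17). With all 4 untreated primary CIZ1 null samples, S13 among them, the change was -0.85 and was not called (adjusted p = 0.0670, limma).

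Uqcrb (chromosome 13, 66900616 to 66998401, a locus that also holds Mterf3 and Ptdss1), which encodes a subunit near the ubiquinone site, went the other way. It was at 108, 127 and 104 FPKM in primary WT cells and at 174, 164 and 180 FPKM in the adapted WT lines. CIZ1 null cells had values of 144, 126 and 98.9 FPKM before and 249, 141 and 249 FPKM after adaptation. The WT groups did not overlap, while in CIZ1 null cells adapted E13.17 lay just below primary E13.15. The log2 changes were 0.61 (SE 0.15) in WT and 0.76 (SE 0.29) in CIZ1 null cells, with adjusted p = 0.0538 and 0.143 (limma), so neither was called. The ratio of Uqcrb to the 3 summed units of Uqcrfs1 within a library, a pair chosen after its values were seen, was 0.719 to 1.03 in the 6 primary populations matched to an embryo and 1.40 to 2.92 in the 6 adapted lines. S13 had a ratio of 1.63, S14 of 0.798 and S15 of 1.75.

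The other genes of complex III were lower in adapted cells or close to their primary level, apart from Uqcrc2. Uqcrq (chromosome 11, 53427195 to 53430953), a subunit beside cytochrome b, was at 318 to 378 FPKM in primary WT and 151 to 273 in adapted WT cells, a log2 change of -0.84 (SE 0.24, adjusted p = 0.0745, limma). In CIZ1 null cells its change was -0.20 (SE 0.18). A further unit of Uqcrq at the same coordinates fell in WT cells from 21.6 ± 4.55 to 7.77 ± 2.06 FPKM, a log2 change of -1.37 (SE 0.25, adjusted p = 0.0266, limma). A further unit of Uqcr10, a small accessory subunit, fell in both genotypes, from 5.29 ± 0.731 to 1.69 ± 0.838 FPKM in WT cells (log2 change -1.26, adjusted p = 0.0398, limma) and from 5.58 ± 0.173 to 2.14 ± 0.437 in CIZ1 null cells (log2 change -1.08, adjusted p = 0.0347, limma). With the embryo as a block the call of this Uqcrq unit stayed (adjusted p = 0.0463, limma) and those of Uqcr10 were lost (adjusted p = 0.0635 and 0.1001, limma). The leading unit of Uqcr10 had log2 changes of -0.70 (SE 0.32) and -0.53 (SE 0.16), with adjusted p = 0.202 and 0.0937 (limma). Uqcrc1, a large core protein of the matrix side, was at 123 to 134 FPKM in primary CIZ1 null cells and 70.0 to 93.2 in the adapted lines (log2 change -0.68, adjusted p = 0.0720, limma). Its partner Uqcrc2 had a change of 0.42 there (SE 0.15, adjusted p = 0.140, limma) and of 0.0034 in WT cells.

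**Figure D4:**
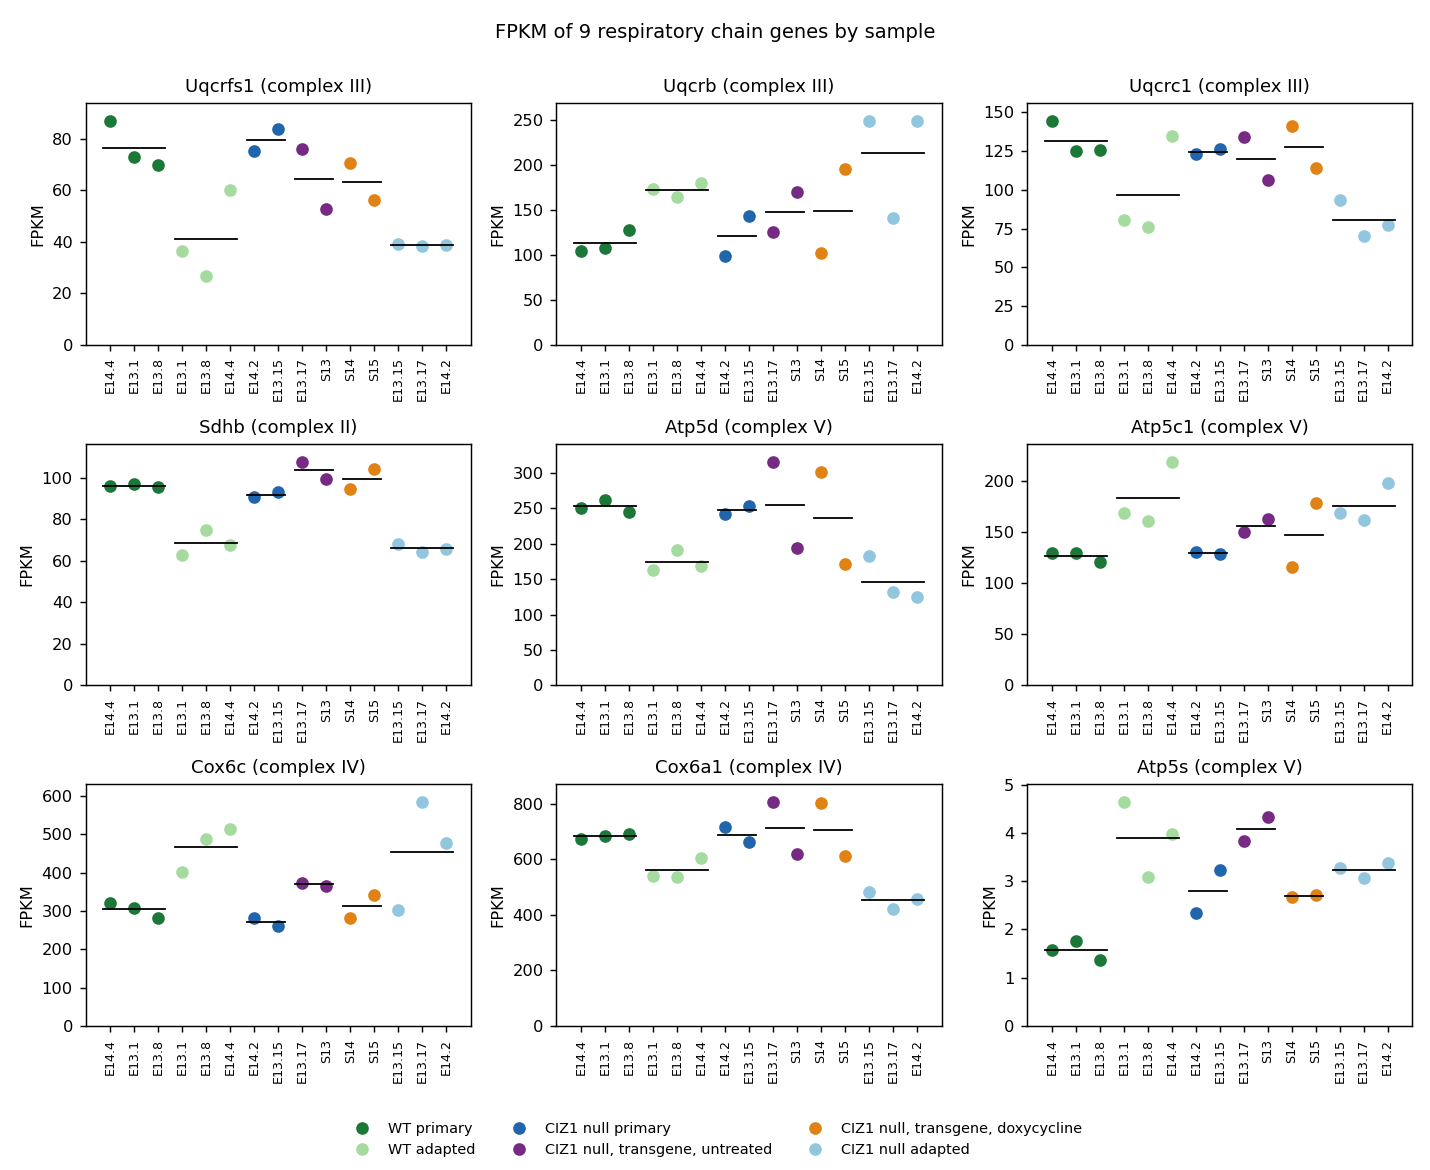
FPKM of the leading unit of 9 genes in each of 15 samples, with black lines at group means. Uqcrfs1, Sdhb and Atp5d are lower in all 6 adapted lines than in the 6 primary populations matched to an embryo, and Atp5c1 is higher. S13 and S15 lie toward the adapted lines for Uqcrfs1, Uqcrb, Atp5d and Atp5c1 but not for Sdhb.

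In complex II the iron-sulfur subunit Sdhb (chromosome 4, 140961203 to 140979193) was the gene that changed most. It was at 97.2, 95.4 and 96.0 FPKM in primary WT cells and at 62.9, 75.0 and 67.6 FPKM in the adapted WT lines. Values in CIZ1 null cells were 92.9, 108 and 90.8 FPKM before and 68.1, 64.3 and 65.8 FPKM after adaptation. The groups did not overlap in either genotype, yet with log2 changes of -0.49 (SE 0.15) and -0.55 (SE 0.16) it was not called (adjusted p = 0.0807 and 0.0896, limma). Sdha had changes of -0.23 and -0.18, Sdhc of -0.17 and -0.25, and Sdhd of -0.015 and -0.34, each with an SE of 0.17 to 0.21.

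Complex I, the largest of the set, had a median log2 change near 0 in WT cells (-0.017 over 37 genes) and of -0.11 in CIZ1 null cells. None of its leading units was called in either genotype, and 7 and 5 of the 37 had an unadjusted p under 0.05 (18.9% and 13.5%, against 30.6% and 29.3% of all units). In WT cells, 8 leading units were above and 4 below their primary values without overlap (32.4% together, against 38.7% of all units), and in CIZ1 null cells 0 were above and 7 below (18.9%, against 37.1%). Subunits that carry redox centres did not share a direction in WT cells, and none was called. Ndufs1, the large iron-sulfur subunit, was at 33.2 ± 2.15 FPKM in primary and 45.5 ± 5.82 in adapted WT cells (log2 change 0.44, adjusted p = 0.130, limma), and Ndufv2, another iron-sulfur subunit, was at 62.5 ± 2.30 and 84.5 ± 10.8 (log2 change 0.42, adjusted p = 0.129, limma). Their changes in CIZ1 null cells were 0.063 and 0.24. In contrast, mean levels in primary and adapted WT cells were 50.0 and 48.4 FPKM for Ndufv1, which binds the flavin, 56.9 and 51.3 for Ndufs8 and 91.0 and 90.9 for Ndufs7, both iron-sulfur subunits. Ndufa4 was at 216 to 279 FPKM in primary WT and 290 to 458 in adapted WT cells (log2 change 0.63, SE 0.22, adjusted p = 0.106, limma), with a change of 0.068 in CIZ1 null cells. Ndufc1, a small subunit of the membrane arm, was at 154 ± 14.5 FPKM in primary and 90.0 ± 3.40 in adapted CIZ1 null cells (log2 change -0.77, SE 0.16, adjusted p = 0.0502, limma), while its change in WT cells was -0.14 (SE 0.16). The interaction for Ndufc1 was -0.63 (SE 0.21, unadjusted p = 0.0112, adjusted p = 0.996, limma). The one complex I unit called was a further unit of Ndufc2, which fell from 30.5 ± 3.73 to 13.9 ± 3.41 FPKM in WT cells (log2 change -1.10, adjusted p = 0.0323, limma) and from 32.7 ± 5.56 to 11.8 ± 2.17 in CIZ1 null cells (log2 change -1.40, adjusted p = 0.0287, limma). Both calls were lost with the embryo as a block (adjusted p = 0.0675 and 0.0721, limma). The leading unit of Ndufc2 at the same coordinates had changes of -0.017 and -0.14.

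Complex IV, cytochrome c oxidase, had genes on both sides. Cox6c (chromosome 15), an accessory subunit, was at 307, 282 and 322 FPKM in primary WT cells and at 402, 487 and 514 FPKM in the adapted WT lines, a log2 change of 0.61 (SE 0.16, adjusted p = 0.0570, limma). In CIZ1 null cells the change was 0.54 (SE 0.29). Cox6a1 was at 660 to 805 FPKM in primary and 419 to 481 in adapted CIZ1 null cells (log2 change -0.68, SE 0.17, adjusted p = 0.0638, limma), and its change in WT cells was -0.29 (SE 0.13). Cox6b1, a subunit on the intermembrane side, had changes of -0.51 and -0.49 (adjusted p = 0.147 and 0.130, limma), without overlap in either genotype. Cox5a had a change of -0.62 in CIZ1 null cells (adjusted p = 0.122, limma) and of 0.019 in WT cells, with an interaction of -0.64 (unadjusted p = 0.0457, adjusted p = 0.996, limma).

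The tissue forms of complex IV had the largest log2 changes, at low level and with wide errors. Cox6b2, the form of subunit VIb known from testis, was at 9.1, 7.4 and 2.8 FPKM in primary WT cells and at 7.9, 0.0 and 1.1 FPKM in the adapted WT lines. The same unit in CIZ1 null cells was at 2.7, 13.2 and 11.2 FPKM before and at 1.7, 0.4 and 0.0 FPKM after adaptation (log2 change -2.48, SE 0.61, adjusted p = 0.0644, limma). Cox6a2, the form of subunit VIa known from heart and skeletal muscle, was between 0.3 and 1.8 FPKM in 12 samples and at 10.5, 7.4 and 1.9 in adapted CIZ1 null E13.15, E13.17 and E14.2. The log2 difference between adapted CIZ1 null and adapted WT lines was 2.06 (SE 0.53, unadjusted p = 0.00667, adjusted p = 0.998, limma). The locus listed for this unit runs from 128154019 to 128223816 on chromosome 7 and also holds Itgad, and muscle markers summed to at most 0.00376 FPKM in these 3 lines. Cox7a1, also known from muscle, was at 1.76 ± 0.760 FPKM in primary and 0.278 ± 0.482 in adapted WT cells (log2 change -1.14, adjusted p = 0.0878, limma). Mean levels were 0.692 FPKM for Cox6b2 in adapted CIZ1 null lines and 0.596 FPKM for Cox6a2 in adapted WT lines. Each of these units thus passed the filter of 1 FPKM only through the other group of its comparison, and its p-value is no separate support.

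Complex V, ATP synthase, also divided. The delta subunit of the central stalk, Atp5d (chromosome 10, 80115803 to 80145818), was at 262, 245 and 251 FPKM in primary WT cells and at 162, 192 and 169 FPKM in the adapted WT lines. Values in CIZ1 null cells were 253, 316 and 242 FPKM before and 182, 131 and 125 FPKM after adaptation. Neither genotype showed overlap. The log2 changes were -0.54 (SE 0.14, adjusted p = 0.0617, limma) and -0.89 (SE 0.22, adjusted p = 0.0643, limma). The gamma subunit of the same stalk, Atp5c1, went the other way without overlap in either genotype, from 127 ± 5.01 to 184 ± 31.4 FPKM in WT cells (log2 change 0.51, SE 0.17, adjusted p = 0.101, limma) and by 0.36 log2 units in CIZ1 null cells (SE 0.17). Atp5g1, one of the 3 genes for the proton-carrying c subunit, had changes of -0.45 and -0.77 (adjusted p = 0.163 and 0.109, limma), and its relatives Atp5g2 and Atp5g3 had changes of 0.19 and -0.076, and of -0.20 and -0.35. Atp5o, a stalk subunit whose unit also carries the names Donson and Son, had a change of -0.40 in WT cells (adjusted p = 0.137, limma). Atp5b itself was at 1138 ± 156 and 1163 ± 293 FPKM in primary and adapted WT cells, and at 1075 ± 60.9 and 827 ± 67.4 in CIZ1 null cells (log2 change -0.38, adjusted p = 0.171, limma).

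Atp5s (chromosome 12, 69724949 to 69746373) was the one leading unit called in WT adaptation. It was at 1.8, 1.4 and 1.6 FPKM in primary WT cells and at 4.6, 3.1 and 4.0 FPKM in the adapted WT lines, a rise of 0.92 log2 units (SE 0.20, adjusted p = 0.0411, limma). The primary CIZ1 null populations were at 3.2, 3.8 and 2.3 FPKM, against 3.3, 3.1 and 3.4 FPKM after adaptation, a change of 0.051 (SE 0.21). The interaction was -0.87 (SE 0.27, unadjusted p = 0.00785, adjusted p = 0.996, limma). The rise in WT cells was not called with the embryo as a block (adjusted p = 0.0758, limma), over the sum of its 3 units (0.0745), without a filter on FPKM (0.0866) or without any one of 5 of the 6 libraries (0.0534 to 0.163), adapted E13.8 being the one whose loss kept the call.

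**Figure D5:**
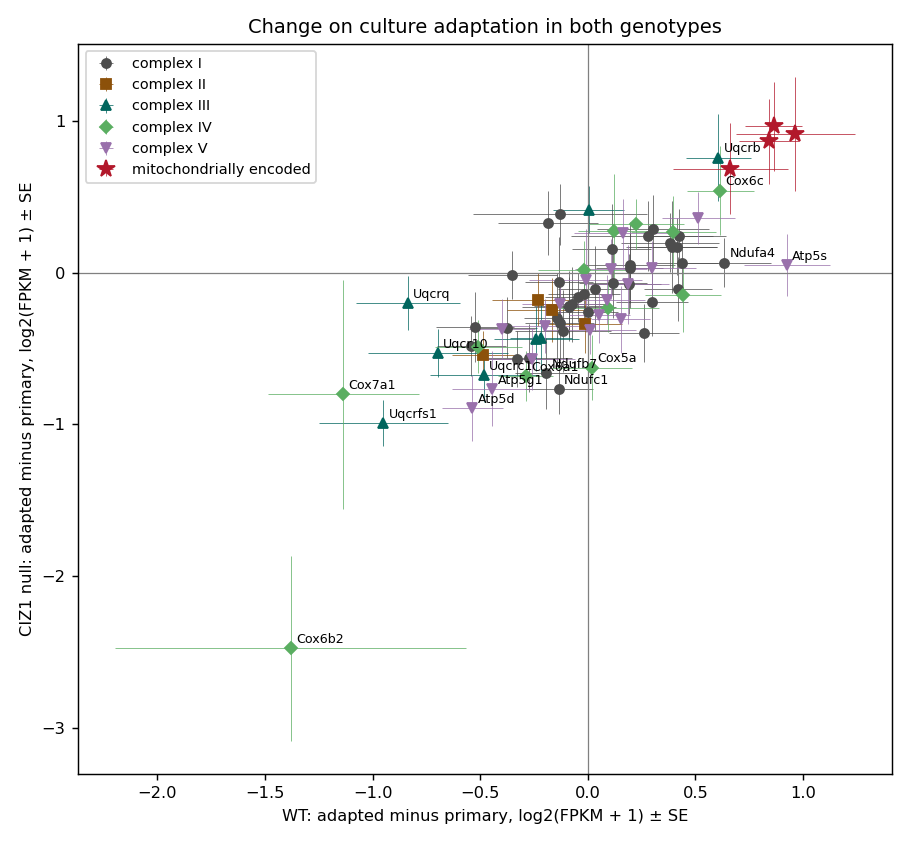
Change of log2(FPKM + 1) on adaptation in WT cells (horizontal axis) and in CIZ1 null cells (vertical axis), with standard errors, for leading units tested in both and for the 4 mitochondrial units (stars). The 2 axes share no samples. Uqcrb and Cox6c lie beside the mitochondrial units at the upper right, and Uqcrfs1, Atp5d and Sdhb at the lower left.

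Loss of CIZ1 did not give a call in the set. In primary cells none of 98 member units was called by limma, with 1 of 19566 units called in all (0.00511%), and 2 members had an unadjusted p under 0.05 (2.04%, against 6.26% of all units). Values did not overlap in 7 (7.14%, against 11.9%). These 2 were Atp5s, with a log2 difference of 0.68 (SE 0.19, unadjusted p = 0.00910, adjusted p = 0.681, limma), and Ndufb11, a complex I membrane arm subunit encoded on the X chromosome, with 0.36 (SE 0.14, unadjusted p = 0.0341, adjusted p = 0.776, limma). The median difference of members was 0.071 log2 units and 76 of 98 were positive, against 9776 of 19566 over all units, but E13.17 stood apart. Its leading units had a median 0.30 above the mean of primary WT cells, with 73 of 79 above it, where the medians of E14.2 and E13.15 were -0.042 and -0.035. Without E13.17 the median difference of members was -0.039. Of the 73 genes at 20 FPKM or more, E13.17 was the highest of all 15 samples for 20, and it had the lowest mitochondrial sum. In adapted cells none of 100 member units was called (1 of 19976 units in all, 0.00501%), 2 had an unadjusted p under 0.05 (2%, against 4.02%), and values did not overlap in 15 (15%, against 8.28%), 4 higher and 11 lower in CIZ1 null cells. The median difference was -0.051 log2 units against 0.034 for all units. Those 2 were Cox6a2, which passed the filter only through the CIZ1 null lines, and Ndufb2, a small membrane arm subunit of complex I.

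Induction of GFP-CIZ1 in CIZ1 null cells was followed in 2 treated and 2 untreated populations. None of 98 members was called or had an unadjusted p under 0.05 (limma), where 2 of 19768 units were called (0.0101%) and 1.76% had an unadjusted p under 0.05. Values did not overlap in 20 (20.4%, against 19.7%). The median difference of members was -0.017 log2 units, and it was 0.12 without E13.17 and -0.18 without S13. In 3 measures chosen after their values were seen, the 2 samples of a group differed more than the means of the groups. Uqcrb was at 126 and 170 FPKM in untreated E13.17 and S13 and at 102 and 196 in treated S14 and S15. Atp5d was at 316 and 194 FPKM in the untreated and at 301 and 171 in the treated samples. The mitochondrial sum was 6011 and 14192 FPKM in the untreated and 7680 and 12219 in the treated samples. E13.17 and S14 were thus alike in all 3 measures, as were S13 and S15, across the treatment. Since S14 and S15 could not be assigned to E13.17 and E14.19, the embryo was not entered in the test, and its part in the split was not tested. The relative depth of the 4 libraries was 1.44 in E13.17, 0.483 in S13, 1.17 in S14 and 0.877 in S15, and its part was not tested either. Atp5s did not follow the split, at 3.84 and 4.33 FPKM in the untreated and 2.68 and 2.72 in the treated samples, without overlap. The largest differences of members were in Cox6b2 (-0.68, SE 0.51), a further unit of Ndufa8 (0.47, SE 0.34) and Atp5s (-0.46, SE 0.30). For the leading units of complex II the median was 0.11, the highest of any complex, with 3 of 4 higher in both treated samples. Of all 19768 units tested, 1763 were also higher in both treated samples.

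Other genes of the pathway were read from lists of assembly factors, regulators, mitochondrial ribosomal proteins, and carriers and citrate cycle enzymes. Of 71 units of assembly factors, 0 rose and 4 fell in WT adaptation (5.63%, against 9.55% of all units called), and of 70 in CIZ1 null adaptation 0 rose and 1 fell (1.43%, against 4.86%). Those that fell in WT cells were Cox17 (-1.46, adjusted p = 0.0152, limma), the chaperone that brings copper to complex IV, Cox19 (-0.83, adjusted p = 0.0334), which acts with it, and both units of Higd2a (-0.71 and -1.04), an assembly factor of complex IV, the smaller of which also fell in CIZ1 null cells (-1.16, adjusted p = 0.0322, limma). Of 109 units of mitochondrial ribosomal proteins 1 rose and 9 fell in WT cells (9.17%, against 9.55%), and of 108 in CIZ1 null cells 0 rose and 5 fell (4.63%, against 4.86%), shares near those of all units. Mrpl42 rose by 1.14 log2 units in WT cells (adjusted p = 0.0185, limma). Mrpl17 fell by 1.04 and by 1.33 (adjusted p = 0.0307 and 0.0352, limma), and both units of Mrps12 and the unit of Mrpl57 were also called downward in both genotypes. The median change of this list was -0.24 in WT and -0.26 in CIZ1 null cells, close to that of all units of at least 20 FPKM. Of 32 units of carriers and citrate cycle enzymes, 0 were called in WT cells by limma (against 9.55%) and 1 in CIZ1 null cells (3.13%, against 4.86%), where Vdac3, a channel of the outer membrane, rose by 0.86 (adjusted p = 0.0468, limma). No unit of these 4 lists was called for loss of CIZ1, induction or the interaction. With the embryo as a block 1 of these calls was left, that of Cox17 in WT cells (adjusted p = 0.0406, limma), while Mrpl42 was just past the threshold (adjusted p = 0.0501, limma).

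Among 14 units of regulators, 1 rose and 1 fell in WT cells (14.3%, against 9.55% of all units called), and 0 rose and 1 fell in CIZ1 null cells (7.14%, against 4.86%). Tfam, which packages mitochondrial DNA and starts its transcription, was at 15.4, 18.7 and 13.8 FPKM in primary WT cells and at 30.8, 29.8 and 31.0 FPKM in the adapted WT lines. It rose by 0.90 log2 units (SE 0.17, adjusted p = 0.0303, limma). In CIZ1 null cells Tfam was at 18.7, 14.5 and 17.2 FPKM before and at 32.4, 36.6 and 23.5 FPKM after adaptation, without overlap but not called. A unit of Yy1 fell in both genotypes, from 11.6 to 12.4 FPKM in primary WT cells to 4.09 to 6.99 in the adapted lines (log2 change -1.10, adjusted p = 0.0329, limma) and by 1.29 log2 units in CIZ1 null cells (adjusted p = 0.0355, limma). With the embryo as a block these calls were lost (adjusted p = 0.0749 for Tfam in WT cells, 0.0683 and 0.0980 for Yy1, limma). The leading unit of Yy1 at the same coordinates was at 21.6 to 28.4 FPKM in primary and 22.8 to 30.4 in adapted WT cells. Nrf1, Gabpa and Polrmt, the RNA polymerase of mitochondria, were not called in any comparison. Ppargc1a, a coactivator of mitochondrial genes known from muscle and brown fat, did not exceed 0.456 FPKM in any sample.

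The spread between replicates differed between groups. The median SD of the 79 leading units, on the log2(FPKM + 1) scale, was 0.0935 in primary WT and 0.256 in adapted WT cells, and 0.205 and 0.208 in primary and adapted CIZ1 null cells. Over all 20031 units of at least 1 FPKM it was 0.185, 0.360, 0.216 and 0.357 in the same order, and over the 4768 units of at least 20 FPKM it was 0.147, 0.355, 0.194 and 0.358. The respiratory chain genes had the lower median in each group against all units, and in 3 of 4 groups against units of at least 20 FPKM, primary CIZ1 null cells being the exception.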

How the data were processed

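Poly(A)-selected RNA of 15 fibroblast populations was sequenced. The authors trimmed reads with cutadapt 1.8.3, aligned them to GRCm38 with HISAT2 2.0.5, assembled transcripts with Cufflinks and normalised with Cuffnorm, and the deposited values used here are FPKM per transcription unit. Their second table holds their own fold changes, p-values and q-values from Cuffdiff 2.2.1 and was not used. Coordinates are theirs, written 1-based. Values of 12 samples were 100% identical to those listed per embryo in the study, which gave the embryo of each. Adapted lines come from the primary populations of the same embryos, and deviations of same-embryo samples from their group means had correlations of -0.0193 to 0.210.

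Here log2(FPKM + 1) was compared with limma 3.58.1 in R 4.3.3 (eBayes with a trend) over units with a mean of at least 1 FPKM in the samples compared, two-sided, with Benjamini-Hochberg adjustment over all units. Only the groups compared entered each fit, apart from the interaction, which used 4 groups. The test was also tried on simulated data. Alternatives were a pseudocount of 0.1, no filter or a mean of 5 FPKM, quantile normalization, all samples in one fit, array weights, the embryo as a block, other sets of primary CIZ1 null samples, each sample left out, and, added after the data were seen, units of one gene summed. Python 3.11.15, NumPy 2.4.6, pandas 2.3.3 and Matplotlib 3.10.9 were used for the rest. Members, lists and tests were chosen with earlier results of these data known. The genes named are the called members, the 3 largest changes of each comparison, fixed isoforms and core subunits, the highest and lowest level of each complex, and up to 5 called genes of each list per direction, with further genes chosen after their values were seen (Ndufb11, Ndufb2, Atp5s in the interaction and members without overlap). P-values measure the spread between single samples within groups. In each adaptation comparison both groups come from the same 3 embryos, and the main fit did not pair them.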

Additional observations from a re-analysis of the deposited data

Results flagged for a closer look

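Ndufb2 (complex I, in a unit that also carries the names Adck2 and Gm42420) changed in opposite directions on adaptation in the 2 genotypes. It was higher in the adapted line than in the primary population of the same embryo in 3 of 3 WT pairs, with a mean of 0.26 log2 units, and lower in 3 of 3 CIZ1 null pairs, with a mean of -0.40. It was the only one of 99 member units picked for this pattern of signs, and how many of all units have the pattern was not counted. The interaction was -0.66 (SE 0.24, unadjusted p = 0.0198, adjusted p = 0.996, limma), which did not pass correction over 20046 units. Since this test used the values by which the unit was picked, its unadjusted p is no separate support. No group had 4 or more samples, so single samples could not be tested as outliers.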

How the results depend on the processing

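Counts of called members rested on the settings. In WT adaptation, 4 became 0 with units of a gene summed, 1 without the filter, 10 with quantile normalization, 7 with all samples in one fit, 8 with array weights and 1 with the embryo as a block, and leaving out single samples gave 0 to 10 (0 without any one primary WT population, 1 without adapted E13.8, 10 without adapted E14.4). Calls over all units moved as well, from 572 upward and 1330 downward. Without any one primary WT population they were 4 to 7 and 55 to 66. They were 300 and 996 without adapted E13.8, and 1021 and 1951 without adapted E14.4. With quantile normalization they were 982 and 1081, with all samples in one fit 607 and 1391, and with array weights 863 and 1783. In CIZ1 null adaptation, 3 became 1 with units summed, 9 with all samples in one fit, 6 with array weights, 0 with the block and 0 with only E14.2 and E13.15 as primary, and 0 to 8 without single samples (8 without adapted E13.15, 0 without adapted E14.2 or any one primary population). Over all units the calls there went from 280 upward and 695 downward to 6 to 8 and 18 to 24 without any one primary population. They were 13 and 27 without adapted E14.2, and 1021 and 1978 without adapted E13.15. With all samples in one fit they were 1066 and 1575, and with array weights 665 and 1271. The 2 mitochondrial units called in WT cells became 0 without the filter, 4 with quantile normalization, 0 with all samples in one fit and 1 with the block, and 0 to 4 without single samples (4 without adapted E13.1, 0 without any one primary population). In CIZ1 null cells 2 were called with all samples in one fit. Median changes of members moved to 0.19 (WT) and 0.028 (CIZ1 null) with quantile normalization, and those of all units to 0.058 in each genotype. Without single samples the WT median ran from -0.12 to 0.027, that of CIZ1 null adaptation from -0.24 to -0.087 and that of induction from -0.18 to 0.12. Quantile normalization also turned Ndufc1 in WT cells to 0.14 and Uqcrq in CIZ1 null cells to 0.084. Over all units the block left 94 calls upward and 405 downward in WT and 5 each in CIZ1 null adaptation, and no named member was newly called with it. Of the values of single genes, 662 kept direction and side of the threshold, 36 passed it newly, 48 no longer passed and 2 turned. The cause of these moves was not tested, apart from fewer samples in the fits without one. Depth is unknown, so low units carry an error that could not be given.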
